A study of Fragaria x ananassa with 4 samples.

Results

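The 35 genes described here have a description, in the study's intensity matrix, that names an enzyme of the Calvin cycle or of photorespiration, or a protein that acts on Rubisco. They were found by searching all database hits listed for a gene for ribulose, Rubisco, phosphoribulokinase, sedoheptulose, fructose-1,6-bisphosphatase, transketolase, glycolate oxidase, phosphoglycolate, the glycine decarboxylase, cleavage or dehydrogenase system, serine hydroxymethyltransferase and hydroxypyruvate reductase. The matrix has 35117 rows, of which 18984 carry a description. The first-listed hit matched for 17 of the 35 genes, and only a later hit matched for the other 18. No description matched phosphoglycolate phosphatase or hydroxypyruvate reductase, and these enzymes were not analysed here.

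Receptacle is the fleshy part of the strawberry fruit, on which the achenes sit. It was taken from cultivated strawberry, F. × ananassa, at the ripe red (R) stage and at the small green (G1) stage, and 2 RNA samples of each stage were each hybridised to a 1-colour array. No treatment or transgene is named for either stage. The methods name the cultivar Camarosa grown in the field, whereas the sample descriptions place the plants in a growth chamber and then in a greenhouse. RNA was made from pooled fruits without achenes, according to the methods. The sources do not settle if both samples of a stage came from pools of their own, and the p-values may therefore reflect no more than technical spread. The probes follow gene models of the woodland strawberry, whose gene numbers are used here, and the copies of a gene in the octoploid cultivated strawberry may share a probe.

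The Calvin cycle fixes carbon dioxide in the chloroplast. Rubisco joins it to a sugar phosphate, the product is reduced to triose phosphate, and a set of transketolase, aldolase, phosphatase, isomerase and kinase steps rebuilds the acceptor. Photorespiration begins when Rubisco takes oxygen instead, and it recovers the carbon through peroxisomes and mitochondria, where glycolate oxidase, glycine decarboxylase and serine hydroxymethyltransferase act. Young green strawberry fruits hold chlorophyll and chloroplasts, and the green colour is lost before the fruit turns red. Several of these enzymes have cytosolic or mitochondrial forms with other tasks, such as sugar synthesis and the supply of one-carbon units.

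Signals are given as log2 of the spot's processed signal minus that of the array's 75th percentile, so 0 is the 75th percentile of the array. The percentile itself was a processed signal of 671 and 509 for red receptacle, and of 390 and 347 for green receptacle. Each probe binds with its own strength, so levels were compared between stages and not between genes. Red replicate 1 was on another slide and in another scan than the other 3 arrays. When slide was a block, only red replicate 2 bore on the contrast, and 18 of the 35 genes were lower and 9 higher, against 32.1% and 32.4% of all genes tested. The labels were checked against 4 ripening genes of the receptacle, and 3 of them were higher in red receptacle by at least 4-fold. The exception was gene30478, the ripening gene FaPRE1, which changed by -0.65 on the log2 scale. Genes whose descriptions name photosystems or chlorophyll-binding proteins were lower in 45 of 47 tested (95.7%, against 35.1% of all genes tested). Their median change was -2.94.

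Genes of the Calvin cycle and of photorespiration changed in both directions. In red receptacle 19 of the 35 genes were lower (54.3%), against 35.1% of all 24975 genes tested. A further 11 were higher (31.4%), against 37.8% of all genes tested. Thus 30 of the 35 changed in either direction, against 72.8% of all genes. The other 5 did not pass the test (14.3%, against 27.2% of all genes). All calls are at an adjusted p under 0.05 in limma. The larger changes were downward: 11 genes were lower by at least 4-fold (31.4%, against 11.7% of all genes), and 5 by at least 16-fold (14.3%, against 3.7%). Only 1 gene was higher by at least 4-fold (2.86%, against 6.11%). This was gene24208, well above background in red receptacle alone, and it had a change of 0.04 with the normexp background correction. Conversely gene04692, gene04693 and gene29967 were well above background in green receptacle alone, and all are among the 19 lower genes. Of these, gene04692 and gene04693 are among the 11, and gene04692 among the 5. The direction of these genes followed from the filter on dim probes. In these fold counts a gene not well above background in a stage stands at its bound in the percentile scaling. The median log2 fold change of the 35 genes was -0.48, and that of all genes tested was 0.04.

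The split depends on how the arrays are scaled. In the study's RMA matrix the median of all genes tested stood at 0.51, and 16 of the 35 genes were lower and 16 higher, against 23.9% and 52.8% of all genes. After quantile normalization 20 were lower and 11 higher, against 31.3% and 42.5% of all genes, and with the normexp background correction 19 were lower and 10 higher, against 46.4% and 30.9%. Relative to the median of all genes, the median of the 35 genes was -0.51 in the percentile scaling, -0.52 in the RMA matrix, -0.73 after quantile normalization, -0.21 with normexp and -0.29 with no filter on dim probes. Both red arrays were below both green arrays for 19 of the 35 genes, against 42% of all genes tested. They were above both for 15 of the 35, against 45.1%. The stages overlapped for gene26440 alone. The 2 arrays of a stage lay close together, with a median SD of 0.0516 over the genes and stages. For 31 of the 35 the signal was well above background on every array. The other 4 entered the test through the stage in which they were bright. Their folds are given as bounds, or as fitted for gene04693, and hold only in the percentile scaling. With normexp the log2 changes were -1.58 for gene04692, -0.81 for gene04693, -0.71 for gene29967 and 0.04 for gene24208.

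**Figure D1:**
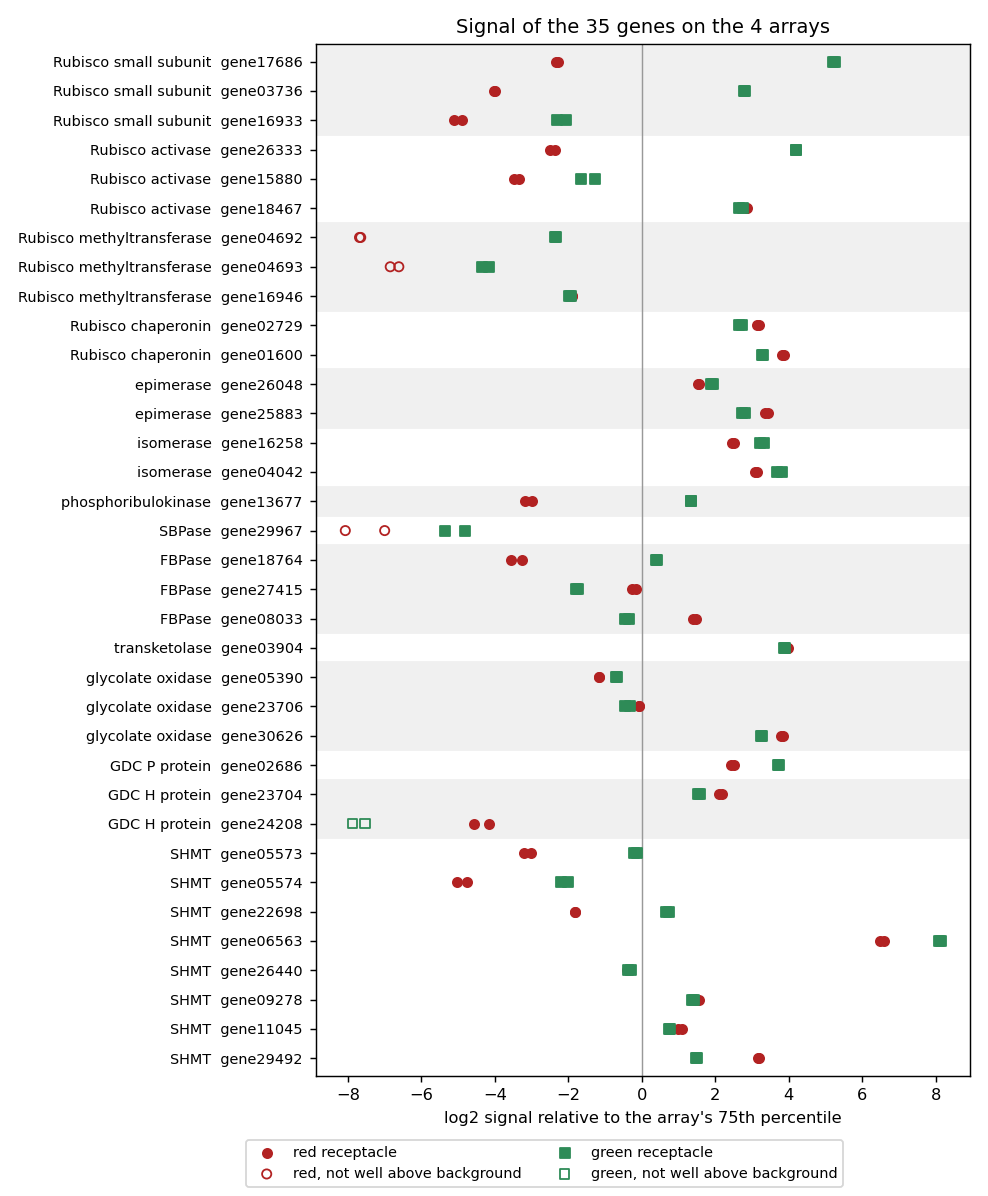
Signals of the 35 genes on the 4 arrays, on the log2 scale with each array's 75th percentile at 0 (horizontal axis), grouped by enzyme (SBPase and FBPase, sedoheptulose and fructose bisphosphatases, GDC, glycine decarboxylase, SHMT, serine hydroxymethyltransferase). Red circles are the 2 red receptacle arrays, green squares the 2 green receptacle arrays, and open symbols mark values not well above background. The arrays of a stage nearly coincide for most genes, and the widest gaps between stages are those of 2 Rubisco small subunit genes and of Rubisco activase gene26333.

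In bulk tissue, fewer cells of a kind and less RNA per cell cannot be told apart. Summed over the 35 genes, the signal in units of each array's 75th percentile was 209 and 215 in red receptacle, against 458 and 447 in green receptacle. Most of the green sum came from 1 bright probe, that of serine hydroxymethyltransferase gene06563, and without it the sums were 120 and 118 in red receptacle, against 178 and 177 in green receptacle. For the photosystem and chlorophyll-binding genes the sums were 314 and 331 in red receptacle, against 1631 and 1573 in green receptacle. Achene tissue was followed through 41 genes whose descriptions name seed storage, oil body or late embryogenesis proteins. Their summed signal was 207 and 214 in red receptacle, against 105 and 112 in green receptacle. Of the 38 tested, 28 were higher in red receptacle (73.7%, against 37.8% of all genes tested) and 8 lower (21.1%, against 35.1%). The brightest tested in red receptacle were gene10617, gene19010, gene22612 and gene31762. Their mean log2 signals there were 5.97, 5.39, 5.26 and 4.57, against 4.31, 4.82, 2.00 and 4.88 in green receptacle. The first-listed hits of gene10617 and gene31762 are an auxin-induced protein and a proline-rich protein. The sum is thus not a measure of achene tissue alone. On each array at least 34 of the 41 were well above background. Vascular markers summed to 193 and 191 in red receptacle, against 143 and 140 in green receptacle. Of 10 tested, 4 were higher and 4 lower (40% each, against 37.8% and 35.1% of all genes tested). Without the bright xylem cysteine proteinase gene23857 the sums were 76.2 and 77.8 in red receptacle, against 74.6 and 72.4 in green receptacle. The largest decreases that passed were those of the sieve element genes gene32613 and gene32614 (-6.06 and -5.67) and of cellulose synthase gene10761 (-2.08). The largest increases that passed were those of the xylem cysteine proteinase genes gene26364 (1.07), gene23857 (0.76) and gene08482 (0.58). The part of these tissues in the values that follow was not tested.

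Rubisco holds a small subunit encoded in the nucleus, and all 3 of its genes were lower in red receptacle. The largest change among the 35 genes was that of gene17686. Its signals were -2.33 and -2.30 in red receptacle, against 5.26 and 5.19 in green receptacle, so the log2 fold change was -7.54 ± 0.07 (SE, n = 2 arrays each, adjusted p = 3.11e-05 from limma). Red receptacle was thus 186-fold lower, which ranked 81 among the decreases of the 24975 genes. For gene03736 the signals were -4.02 and -4.0 in red receptacle, against 2.77 and 2.81 in green receptacle. The change was -6.80 ± 0.06, or 111-fold lower (adjusted p = 3.11e-05 from limma). The dimmer gene16933 had -4.88 and -5.12 in red receptacle, against -2.32 and -2.07 in green receptacle (change -2.80 ± 0.14, adjusted p = 0.000282 from limma). With the normexp background correction the 3 changes were -6.82, -5.21 and -1.40, in the order given.

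The large subunit is encoded in the chloroplast genome. A pair of probes outside the 35 genes, named here after their values were seen, are called Rubisco large subunits in the gene descriptions given with the study, and the matrix gives them no description. On log2 scale gene00070 had 3.42 and 3.56 in red receptacle, against 6.94 and 6.89 in green receptacle, a change of -3.42 ± 0.08 (adjusted p = 6.02e-05 from limma). The values of gene32965 were 2.33 and 2.46 in red receptacle, against 6.08 and 5.92 in green receptacle, a change of -3.60 ± 0.10 (adjusted p = 7.36e-05 from limma). Both probes were thus lower in red receptacle on every array.

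Rubisco needs helper proteins, and here 4 of 8 helper genes were lower (50%) and 2 higher (25%), against 35.1% and 37.8% of all genes tested. The 4 lower genes include gene04692 and gene04693, which were well above background in green receptacle alone. Their direction followed from the filter on dim probes, so the share of 50% rests partly on that filter. Rubisco activase frees the active site of bound sugar phosphates. Its gene26333 had -2.52 and -2.36 in red receptacle, against 4.19 and 4.21 in green receptacle. It was 99.7-fold lower in red receptacle, a change of -6.64 ± 0.08 (adjusted p = 3.11e-05 from limma). A smaller change was measured for activase gene15880, with -3.34 and -3.49 in red receptacle, against -1.65 and -1.27 in green receptacle (change -1.96 ± 0.16, adjusted p = 0.00104 from limma). The third activase match, gene18467, also lists an ATPase of the proteasome among its hits. It had 2.86 and 2.83 in red receptacle, against 2.65 and 2.75 in green receptacle, and did not pass the test (change 0.15 ± 0.07, adjusted p = 0.14 from limma). It passed in the RMA matrix, with 0.61, and with an intensity trend in limma. The median of all genes tested stood at 0.51 in that matrix.

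The methyltransferases of Rubisco's large subunit add methyl groups to a lysine. In red receptacle gene04692 was not well above background on either array, with -7.69 and -7.65, against -2.36 and -2.33 in green receptacle. It was at least 25.5-fold lower in red receptacle (adjusted p = 3.11e-05 from limma). Such a bound compares the mean of the bright stage with a floor for the dim stage. On each dim array the floor is the lowest signal rated well above background there, or the gene's signal where that is higher. The neighbouring number gene04693 has the same description. It had -6.62 and -6.85 in red receptacle, neither well above background, against -4.35 and -4.16 in green receptacle. As fitted it was 5.58-fold lower in red receptacle (adjusted p = 0.000301 from limma). Both of its red signals lay above the floor, so this value is not a bound. These folds rest on the background subtraction of the scanner software: with normexp the log2 fold changes were -1.58 for gene04692 and -0.81 for gene04693, both still past the test. In the RMA matrix they were -7.20 and -3.08. A less certain match, gene16946, had -1.91 and -1.90 in red receptacle, against -1.98 and -1.94 in green receptacle, and did not pass the test (change 0.06 ± 0.06, adjusted p = 0.47 from limma). It passed in the RMA matrix, with 0.53, and after quantile normalization, with 0.37. The medians of all genes tested stood at 0.51 and 0.18 in these settings.

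The chaperonins that bind newly made Rubisco large subunits moved the other way. The beta subunit gene01600 had 3.87 and 3.81 in red receptacle, against 3.28 and 3.31 in green receptacle (change 0.54 ± 0.07, adjusted p = 0.00309 from limma). For the alpha subunit gene02729, which also lists mitochondrial chaperonins among its hits, the change was 0.49 ± 0.07 (adjusted p = 0.00576 from limma). Both were higher in red receptacle by less than 2-fold. These chaperonins also fold other proteins of the plastid.

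Regeneration of the acceptor is covered by 10 genes, of which 6 were lower (60%) and 3 higher (30%) in red receptacle, against 35.1% and 37.8% of all genes tested. Among the 6 lower genes, the direction of gene29967 followed from the filter on dim probes. Phosphoribulokinase makes the acceptor in a step that only the Calvin cycle uses. Its gene13677 had -3.0 and -3.19 in red receptacle, against 1.34 and 1.32 in green receptacle. That is 21.5-fold lower in red receptacle, a change of -4.43 ± 0.09 (adjusted p = 4.81e-05 from limma). With normexp it was 11.2-fold lower. Sedoheptulose-1,7-bisphosphatase is likewise tied to the cycle, and its gene29967 was dim in both stages. It had -7.00 and -8.07 in red receptacle, neither well above background, against -4.82 and -5.37 in green receptacle. It was at least 3.74-fold lower in red receptacle (adjusted p = 0.0103 from limma), but did not pass the test named in the methods, which uses the spread of this gene alone. The 2 red arrays of this gene had the largest SD among the 35 genes, 0.758. Its fitted change of -2.44 became -0.71 with normexp and -4.04 in the RMA matrix, and it passed limma's test in both.

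Fructose-1,6-bisphosphatase occurs as a chloroplast form in the cycle and as a cytosolic form in sucrose synthesis and gluconeogenesis, and its 3 genes did not change alike. The gene described as the chloroplast form, gene18764, had -3.26 and -3.57 in red receptacle, against 0.39 and 0.42 in green receptacle. It was 14.1-fold lower in red receptacle (change -3.82 ± 0.13, adjusted p = 0.000123 from limma). The gene described as cytosolic, gene08033, had 1.47 and 1.40 in red receptacle, against -0.35 and -0.45 in green receptacle. It was 3.57-fold higher in red receptacle (change 1.84 ± 0.08, adjusted p = 0.000189 from limma). The third, gene27415, lists hits of both forms. It had -0.17 and -0.27 in red receptacle, against -1.73 and -1.78 in green receptacle, and was 2.91-fold higher in red receptacle (change 1.54 ± 0.07, adjusted p = 0.000269 from limma). All 3 kept their direction and their call in the RMA matrix, with -3.42 for gene18764, 2.31 for gene08033 and 2.02 for gene27415. With normexp they did so too, but gene18764 was then 7.03-fold lower, and the log2 changes of gene08033 and gene27415 were 1.65 and 1.16.

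The steps that the cycle shares with the pentose phosphate pathway changed by less than 2-fold in the percentile scaling. Elsewhere gene25883 was 2.13-fold higher in the RMA matrix, and gene16258 was 2.02-fold lower after quantile normalization. Both ribose-5-phosphate isomerase genes were lower in red receptacle. The change was -0.79 ± 0.08 for gene16258 (adjusted p = 0.00172 from limma) and -0.63 ± 0.08 for gene04042 (adjusted p = 0.004 from limma), although gene04042 lost its call in the RMA matrix, with -0.16. Of the ribulose-phosphate 3-epimerase genes, gene26048 is described as chloroplastic. It had 1.52 and 1.56 in red receptacle, against 1.95 and 1.89 in green receptacle (change -0.38 ± 0.07, adjusted p = 0.00931 from limma). Its call was lost without red replicate 1, with -0.36, and its value turned to 0.08 in the RMA matrix. The other epimerase, gene25883, had 3.36 and 3.43 in red receptacle, against 2.81 and 2.72 in green receptacle (change 0.63 ± 0.07, adjusted p = 0.00293 from limma). Transketolase gene03904 had 3.97 and 3.94 in red receptacle, against 3.87 and 3.88 in green receptacle, and did not pass (change 0.08 ± 0.06, adjusted p = 0.309 from limma). Its value was 0.54 and past the test in the RMA matrix and -0.20 after quantile normalization. The medians of all genes tested stood at 0.51 and 0.18 in these settings.

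**Figure D2:**
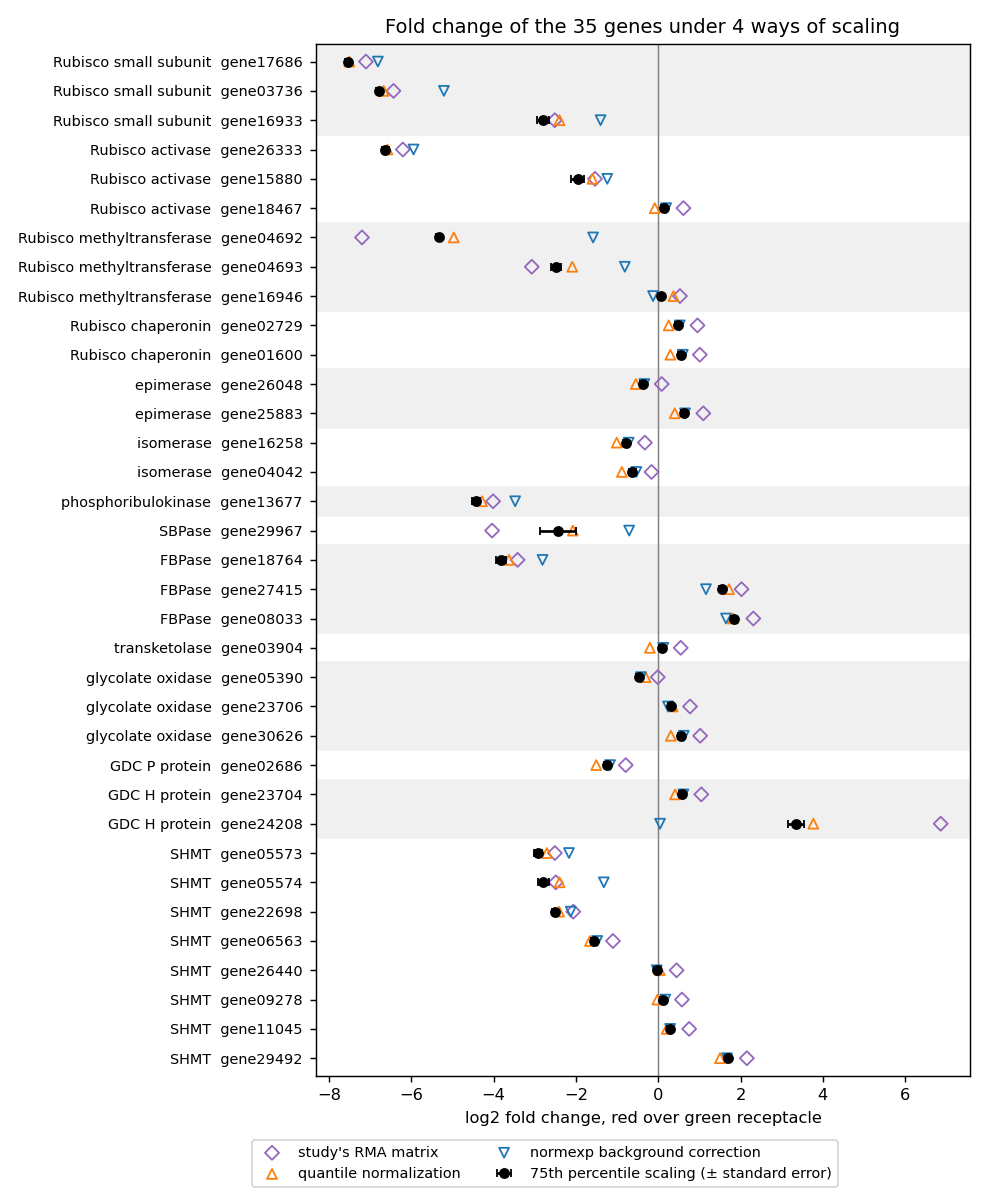
Log2 fold change of red over green receptacle for the 35 genes (horizontal axis), grouped by enzyme. Black points are the percentile scaling with the standard error of limma, and open symbols are the study's RMA matrix, quantile normalization and normexp background correction. The large decreases of the Rubisco small subunit, activase, phosphoribulokinase and chloroplast fructose-1,6-bisphosphatase genes appear under all 4, whereas gene24208 lies at 0.04 with normexp and at 6.86 in the RMA matrix.

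Photorespiration is covered by 14 genes, of which 6 were lower and 6 higher in red receptacle. These shares, 42.9% each, lie near the 35.1% and 37.8% of all genes tested. Among the 6 higher genes, the direction of gene24208 followed from the filter on dim probes. Glycolate oxidase makes glyoxylate in the peroxisome, and its 3 genes share one description. The first, gene05390, had -1.17 and -1.17 in red receptacle, against -0.68 and -0.70 in green receptacle (change -0.48 ± 0.06, adjusted p = 0.0039 from limma), and it lost its call in the RMA matrix, with -0.01. Higher values in red receptacle were found for gene30626, with 3.84 and 3.78 in red receptacle, against 3.28 and 3.23 in green receptacle (change 0.55 ± 0.07, adjusted p = 0.00331 from limma). The change of gene23706 was 0.30 ± 0.08 (adjusted p = 0.0307 from limma). That call was lost without red replicate 1 (0.31), without red replicate 2 (0.30) and without green replicate 2 (0.23).

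Glycine decarboxylase is a mitochondrial complex whose P protein binds glycine and whose H protein carries the intermediate between the subunits. Its P protein gene02686 had 2.41 and 2.50 in red receptacle, against 3.73 and 3.69 in green receptacle. It was 2.39-fold lower in red receptacle (change -1.25 ± 0.07, adjusted p = 0.00038 from limma). Both H protein genes were higher in red receptacle. The values of gene23704 were 2.18 and 2.10 in red receptacle, against 1.54 and 1.58 in green receptacle (change 0.58 ± 0.07, adjusted p = 0.00314 from limma). For gene24208, with the same description, the signals were -4.16 and -4.56 in red receptacle, against -7.87 and -7.54 in green receptacle, where it was not well above background. It was at least 4.66-fold higher in red receptacle (adjusted p = 0.000459 from limma), and this call was lost with normexp, where the change was 0.04. The P and H proteins of the complex thus changed in opposite directions in the percentile scaling.

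Serine hydroxymethyltransferase joins glycine and a one-carbon unit into serine, in mitochondria during photorespiration and elsewhere in the supply of one-carbon units. Its 8 genes ranged from -2.93 to 1.69. Of these, 4 were lower (50%) and 2 higher (25%) in red receptacle, against 35.1% and 37.8% of all genes tested. The lowest was gene05573, with -3.20 and -3.02 in red receptacle, against -0.22 and -0.13 in green receptacle (change -2.93 ± 0.10, adjusted p = 0.000113 from limma). The neighbouring number gene05574 had -5.04 and -4.77 in red receptacle, against -2.21 and -2.01 in green receptacle (change -2.79 ± 0.14, adjusted p = 0.000274 from limma). With normexp gene05574 had a change of -1.32. Signals of gene22698 were -1.83 and -1.83 in red receptacle, against 0.73 and 0.64 in green receptacle (change -2.51 ± 0.07, adjusted p = 7.59e-05 from limma). These 3 genes were lower in red receptacle by 5.71-fold to 7.63-fold.

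The largest increase in this family was that of gene29492. It had 3.15 and 3.20 in red receptacle, against 1.48 and 1.5 in green receptacle, and was 3.22-fold higher in red receptacle (change 1.69 ± 0.06, adjusted p = 0.000154 from limma). A small increase was called for gene11045, at 0.29 ± 0.07 (adjusted p = 0.0283 from limma). It was lost on leaving out any single array, with values of 0.23 to 0.34. The remaining 3 genes of the family are named after their values were seen. Of these, gene06563 had 6.48 and 6.60 in red receptacle, against 8.13 and 8.08 in green receptacle (change -1.57 ± 0.08, adjusted p = 0.000297 from limma). Neither gene09278 (0.11 ± 0.08, adjusted p = 0.26 from limma) nor gene26440 (-0.02 ± 0.08, adjusted p = 0.814 from limma) passed the test. Both passed in the RMA matrix, with 0.57 for gene09278 and 0.44 for gene26440, where the median of all genes tested stood at 0.51.

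Genes with the same description did not always change alike, and 14 of the 35 genes share their description with another of them. The 3 genes described only as putative serine hydroxymethyltransferases were gene06563, gene09278 and gene29492, with changes of -1.57, 0.11 and 1.69. Likewise gene05574 and gene11045, whose hits include a mitochondrial form, had -2.79 and 0.29. The isomerase pair and the methyltransferase pair were each lower for both genes, and the H protein pair was higher for both. For both methyltransferase genes, and for gene24208 of the H protein pair, the direction followed from the filter on dim probes. The likeness within these 2 pairs is therefore no separate result, and gene24208 had a change of 0.04 with normexp. Whether near-identical genes share a probe signal was not tested.

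By the compartment named in the description, 15 of the 35 genes name the chloroplast among their hits. Of these, 11 were lower in red receptacle (73.3%, against 35.1% of all genes tested), 3 were higher (20%, against 37.8%) and 1 did not pass. The 11 include gene04692, gene04693 and gene29967, whose direction followed from the filter on dim probes. The 3 higher genes were gene01600, gene02729 and gene27415. Of 5 genes that name mitochondria, gene05574 was lower, and gene02729, gene11045, gene23704 and gene24208 were higher (20% and 80%). The direction of gene24208 followed from the same filter, and its change was 0.04 with normexp. Both genes that name the cytosol, gene08033 and gene27415, were higher. These groups of 5 and 2 are too small to set their shares against those of all genes. A gene can name more than 1 compartment, and 15 genes name none of the 3. Of these, 7 were lower (46.7%, against 35.1% of all genes tested) and 4 higher (26.7%, against 37.8%).

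**Figure D3:**
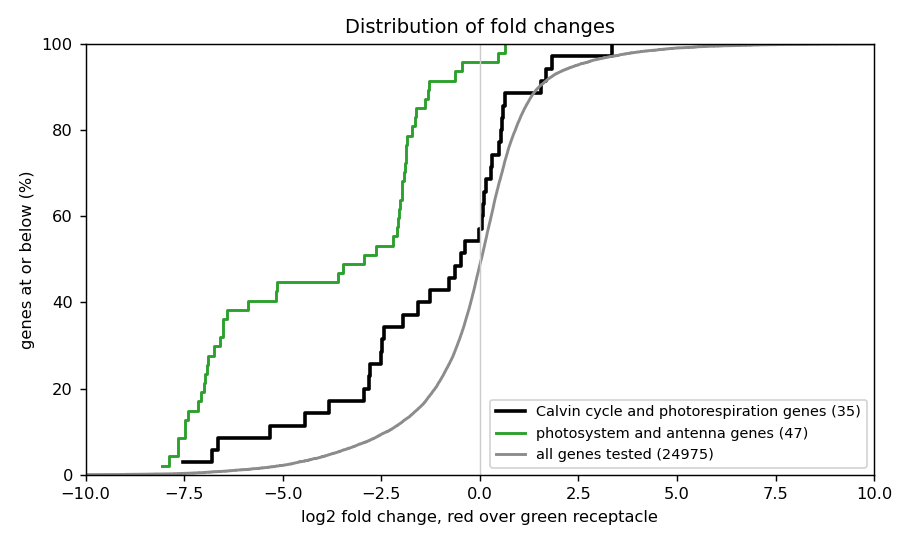
Cumulative share of genes (vertical axis, percent) at or below each log2 fold change of red over green receptacle (horizontal axis). The black line is the 35 Calvin cycle and photorespiration genes, the green line 47 photosystem and antenna genes, and the grey line all 24975 genes tested. The medians were -0.48, -2.94 and 0.04, and the black line lies to the left of the grey line over most of the range below 0 and closer to it above 0.

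Other enzymes of the same pathways were searched by name, and 36 of 44 matching genes could be tested. Of these, 12 were lower (33.3%) and 18 higher (50%) in red receptacle, near or above the 35.1% and 37.8% of all genes. The reduction step gave the largest change. In this step gene01411, a glyceraldehyde 3-phosphate dehydrogenase with the enzyme number of the NADP form, had -5.34 and -5.36 in red receptacle, against 2.79 and 3.07 in green receptacle (change -8.28 ± 0.12, adjusted p = 3.17e-05 from limma). CP12 is a small chloroplast protein that binds this enzyme and phosphoribulokinase. Its gene02283 had 3.93 and 4.00 in red receptacle, against 6.75 and 6.83 in green receptacle (change -2.82 ± 0.07, adjusted p = 6.76e-05 from limma).

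Aldolase acts in the cycle and in glycolysis, and 1 of its 5 genes stood apart. The gene01653 had -1.74 and -1.79 in red receptacle, against 5.06 and 5.18 in green receptacle (change -6.89 ± 0.08, adjusted p = 3.11e-05 from limma). The other 4 aldolase genes were higher in red receptacle by 0.38 to 0.60. Phosphoglycerate kinase, also shared with glycolysis, was lower for 2 of 3 genes, most for gene18538, with 3.05 and 2.98 in red receptacle, against 4.32 and 4.26 in green receptacle (change -1.28 ± 0.07, adjusted p = 0.000364 from limma). Triosephosphate isomerase was lower for 2 of 5 genes, and 3 did not pass. Its largest change was -0.84 ± 0.15 for gene26553 (adjusted p = 0.0094 from limma), a call lost in the RMA matrix (-0.40) and after quantile normalization (-0.37).

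In photorespiration the last step is glycerate kinase, which returns glycerate to the chloroplast cycle. Its gene05994 had 4.80 and 4.77 in red receptacle, against 1.70 and 1.71 in green receptacle (change 3.08 ± 0.06, adjusted p = 4.76e-05 from limma). Alanine-glyoxylate aminotransferase gene31619 had a change of -0.67 ± 0.06 (adjusted p = 0.0015 from limma), which was lost in the RMA matrix, at -0.20. Catalase, which breaks down the peroxide made by glycolate oxidase, had a change of 0.28 ± 0.06 for gene10917 (adjusted p = 0.02 from limma), a call lost on leaving out any single array, with values of 0.26 to 0.30. Glutamine synthetase takes up the ammonia that glycine decarboxylase releases. Its gene00821 had -3.75 and -3.96 in red receptacle, against -7.60 and -5.15 in green receptacle, where it was not well above background, and did not pass (adjusted p = 0.0667 from limma). The direction of gene00821 followed from the filter on dim probes. It passed after quantile normalization (2.89), with an intensity trend, and without green replicate 1 (1.30) or green replicate 2 (3.74). The 3 genes of chloroplast dicarboxylate transporters were higher by 0.73 to 0.82, most for gene27446 (change 0.82 ± 0.07, adjusted p = 0.00117 from limma).

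Carbonic anhydrase interconverts carbon dioxide and bicarbonate, and 12 of its 19 genes could be tested. Of these, 4 were lower (33.3%) and 8 higher (66.7%) in red receptacle, against 35.1% and 37.8% of all genes tested. All 4 lower genes were well above background on only 1 of the 2 red arrays. Among them, gene14136 and gene30309 lost their calls in the RMA matrix, and gene32484 after quantile normalization. Among the 8 higher, gene14726 lost its call after quantile normalization and gene12116 by the methods' t-test. The largest change was that of gene28799, which also lists a tuber storage protein among its hits. It had -0.82 and -0.88 in red receptacle, against -7.37 and -7.08 in green receptacle, where it was not well above background, and was at least 53.4-fold higher in red receptacle (adjusted p = 4.39e-05 from limma). As it entered the test through red receptacle alone, its direction followed from the filter on dim probes. A chloroplast carbonic anhydrase, gene28419, named after its values were seen, had -5.87 and -6.34 in red receptacle, against -1.71 and -1.92 in green receptacle (fitted change -4.28 ± 0.20, adjusted p = 0.000238 from limma). Only 1 of its 2 red arrays was well above background, so the size of this change is uncertain.

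**Figure D4:**
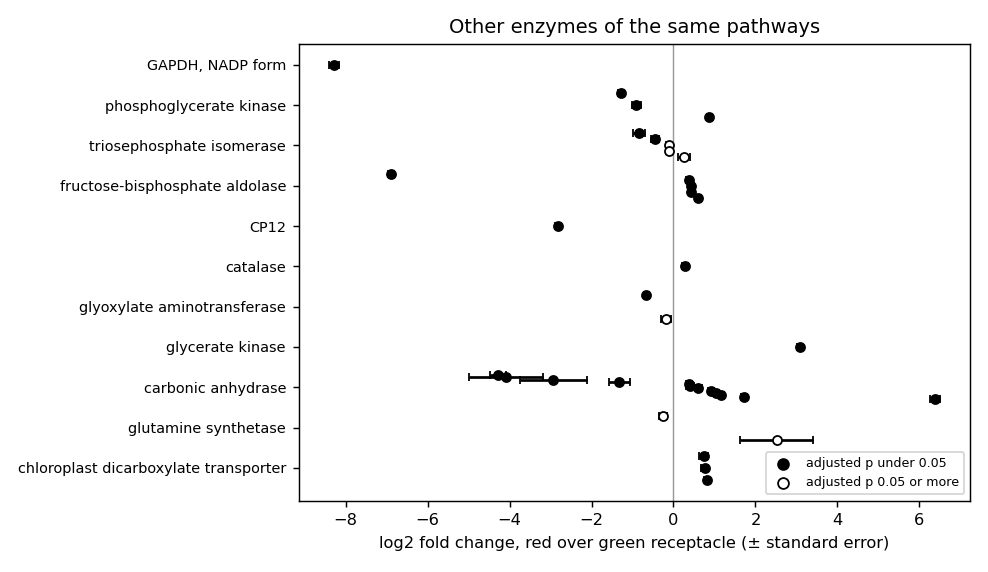
Log2 fold change of red over green receptacle, with the standard error of limma, for the 36 tested genes of other enzymes of the same pathways, by enzyme. Filled points passed the test at an adjusted p under 0.05 and open points did not. One gene each of the NADP form of glyceraldehyde 3-phosphate dehydrogenase and of aldolase lies at -8.28 and -6.89, while the other 4 aldolase genes lie between 0.38 and 0.60.

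A further pair of genes was identified by enzyme number only, after their values were seen. One, gene05391, has the enzyme number of glycolate oxidase and had -5.11 and -5.11 in red receptacle, against -3.10 and -3.15 in green receptacle (change -1.98 ± 0.06, adjusted p = 0.000109 from limma). The other, gene14852, has the enzyme number of serine-glyoxylate aminotransferase, which makes hydroxypyruvate in the peroxisome. It had 2.71 and 2.93 in red receptacle, against 4.42 and 4.55 in green receptacle (change -1.66 ± 0.11, adjusted p = 0.000579 from limma).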

How the data were processed

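Cy3-labelled RNA from red and green receptacle was read on 4 custom Agilent arrays. Per the file headers, Agilent Feature Extraction 10.7.3.1 had made the deposited intensity of each spot, after subtracting background and without scaling the arrays to each other. An RMA matrix was deposited by the authors too, on a linear scale, taken here as log2. Gene descriptions came from it as text.

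Processed signals were taken as log2 minus the array's 75th percentile. Spots marked uneven or outlying (84 to 255 an array) were left out, spots averaged by probe, and a probe kept if well above background on 2 or more arrays. Each of the 35 genes had 1 probe, with 1 spot for 12 genes and 2 spots for 23. None was saturated. The limma package 3.58.1 (R 4.3.3; lmFit, then eBayes) compared the stages without trend or block, with Benjamini-Hochberg adjustment over 24975 genes and a threshold of 0.05. The number of arrays limits the precision. The procedure was tested on simulated data.

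The 35 genes, the list of other pathway enzymes and the marker lists were chosen with earlier results of these data known. Named were all members of enzymes with up to 4 genes, of larger families the 4 largest changes past the test and those opposite to most of the family, and of each other enzyme the largest change. The replicate numbers did not pair the arrays (correlation of same-numbered deviations 0.0782). Alternatives were the RMA matrix, quantile normalization, normexp with an offset of 50, other filters on dim probes, an intensity trend, the methods' t-test, other thresholds, narrower definitions of the gene set, blocks for replicate number or slide, and omission of single arrays. Normalization of the RMA matrix beyond its name is not given in the sources used here.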

Additional observations from a re-analysis of the deposited data

How the results depend on the processing

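The number of genes lower in red receptacle was 16 to 20 over the scalings, filters, blocks and tests tried, against 19, and the number higher was 9 to 16, against 11. Stricter thresholds and narrower definitions, which by construction leave fewer genes, moved the counts. A threshold of 2-fold left 4 genes higher. The study's threshold, a log2 change of over 2 in size with an unadjusted p up to 0.05, left 12 lower and 1 higher. Descriptions matched by the first-listed hit left 10 lower and 4 higher, with a median of -1.25. The median of -0.48 was -0.0132 in the RMA matrix, -0.55 after quantile normalization and -0.38 with genes well above background on all 4 arrays. Of the other pathway enzymes, the 12 lower became 7 in the RMA matrix, 7 by the methods' t-test after Benjamini-Hochberg and 6 by the study's threshold, and the 18 higher became 5 at 2-fold and 2 by the study's threshold. Signs turned in the RMA matrix for gene26048 (0.0814), gene26440 (0.44), gene07388 (0.00219), gene26597 (0.36), gene26932 (0.36), gene13811 (0.32) and gene17694 (0.20). They turned after quantile normalization for gene03904 (-0.20), gene18467 (-0.0870), gene09278 (-0.0230), gene26440 (0.0371) and gene13811 (0.19), and with normexp for gene16946 (-0.13). For gene26440 the sign also turned with slide as a block (0.0242), and leaving out single arrays gave -0.0670 to 0.0242. In the RMA matrix the median of all genes tested stood at 0.51, against 0.04 in the percentile scaling. The cause of the turned signs was not tested. Leaving out each array gave 18 to 19 lower and 9 to 10 higher, 10 to 12 and 14 to 18 for the other enzymes, and medians of -0.48 to -0.47. With the replicate number as a block, 19 genes were lower and 11 higher, the other enzymes stayed at 12 and 18, and the block changed no call. Dim genes depend most on the background subtraction, and probe brightness over background limits their folds.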
